A study of Mus musculus with 6 samples.

Results

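The comparison set Th17 cells at day 4 after activation against CD4+ T cells before activation, with 1 Illumina bead array a side. The day 0 cells are called naive here as a name only. Its members were the 10890 genes whose probe was detected, at a detection p-value below 0.01, on the day 0 or the day 4 array, out of 28865 genes with a probe and 11933 genes detected on at least 1 of the study's 6 arrays. Of the 10890, 8863 were detected on both arrays, 837 on the day 4 array only and 1190 on the day 0 array only. The detection limit was not a sharp edge in signal: the brighter signal of the 100 genes just inside it, with detection p-values of 0.00855 to 0.00962, had a median of 4.89 on the log2 scale, and that of the 100 just outside it, with p-values of 0.0107 to 0.0118, had a median of 4.91.

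All cells came from mice of age 6 weeks and of the strain given as RAG1- BW TRP-1 TCR, a T cell receptor transgenic strain on a background without the recombinase RAG1, with TRP-1 being a protein of pigment cells. The day 0 library was of CD4+ cells before activation, with no treatment. The day 4 library was of cells activated with the TRP-1 peptide and called Th17, and further libraries of the same kind were of days 2, 7, 12 and 18. Cytokines or antibodies added to the culture, a sort or gate, and the number of mice behind a library are not given in the sources used here. With 1 library a time, no difference could be checked in replicates or given an error or a p-value, and the number of arrays limits the precision.

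Th17 cells are helper T cells that make interleukins 17A and 17F, and they depend on nuclear receptors such as RORa, on STAT3 and on the factors IRF4 and BATF, which act early after stimulation. A naive CD4+ cell recirculates through lymph nodes, is kept quiet by factors such as KLF2, and needs little new biomass. After antigen it takes up glucose, divides and makes cytokines, and the interleukin 2 receptor on its surface drives STAT5.

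A gene is called higher or lower here where the brighter array detected it and the normalized signals differed by at least 2-fold. Where the dimmer array did not detect it, the fold is a lower bound, written "at least". By this rule 967 genes were higher at day 4, 8.88% of those compared, and 1125 were lower, 10.3%. Counts of called members of lists and families below are to be read against these shares. The differences were large at the extremes: 46 genes were at least 16-fold higher and 56 at least 16-fold lower. Bounds stood behind 200 of the higher and 325 of the lower calls. Among 707 called genes with another detected probe, that probe went the same way for 680, by at least 2-fold for 442 of them, and the opposite way for 27.

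**Figure D1:**
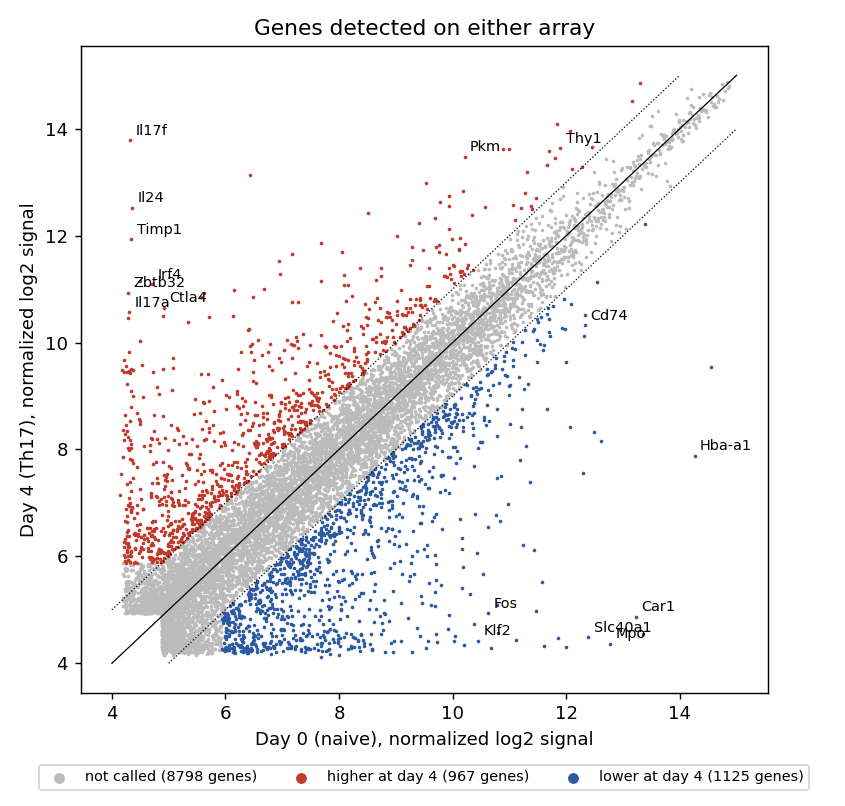
Each point is 1 of the 10890 genes, by its normalized log2 signal at day 0 (x axis) and day 4 (y axis); the solid line marks equal signals and the dotted lines 2-fold. Il17f, Il24 and Timp1 stand at the upper left, and Car1, Mpo and Klf2 at the lower right.

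The balance of the calls depended on how the arrays were scaled to each other. Quantile normalization put the median difference of all compared genes at -0.01 on the log2 scale. Scaling on 12 reference genes, of which Gapdh and Pgk1 were themselves called higher, put it at -0.53 and gave 472 genes higher and 2588 lower. Scaling on 16 T cell receptor and identity genes put it at -0.86 and gave 336 higher and 4274 lower. Median scaling put it at -0.11. Every difference below is relative to the quantile-normalized arrays, and the medians of gene lists are to be read against -0.01, the median of all genes. With the T cell identity scaling the medians of 20 of 51 lists changed sign, but relative to the median of all genes 1 list did, oxidative phosphorylation, which lay at -0.03.

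The T cell label held in both libraries, and the day 0 library also held transcripts of other blood cells. Ccl5, Nkg7, Foxp3 and Mki67 had signal at day 0 too, with values given below, and a naive state was not tested. All 16 T cell receptor and identity genes on the array were detected at day 0 and at day 4. Of them 7 were higher at day 4, with a list median of 0.90 (0.17 with T cell identity scaling), and 1 was lower. Cd4 was at 5.87 at day 0 and 7.14 at day 4, 2.40-fold higher, and Cd3e, a chain of the receptor complex, at 10.66 and 11.49, with its next probe 2.00-fold higher. Rag1 was detected in no library. Cd28, the co-stimulatory receptor, was at 6.29 at day 0 and 8.96 at day 4, 6.35-fold higher. Thy1, a surface glycoprotein of T cells, was at 11.89 and 13.64, 3.35-fold higher, and the lower member was Cd27, a co-stimulatory receptor of the TNF receptor family, at 11.20 and 8.42. Erythroid genes were detected in 18 of 19 at day 0 and 5 of 19 at day 4, and their summed normalized signal was 69107.5 at day 0 and 3899 at day 4. That of the 16 T cell genes was 19089.6 at day 0 and 38034.5 at day 4, so the erythroid sum was the larger at day 0 only. The lists hold different genes, so these sums are not shares of cells. In bulk RNA, fewer cells of a type and less RNA per cell cannot be told apart, and the part that the other cells' RNA plays in the differences below was not tested.

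Cytokine genes of Th17 cells were among the largest differences. Of 12 on the array, 10 were detected on either array, 7 were higher and none lower, at a median difference of 4.03. Il17f, which encodes interleukin 17F, was at 4.33, 13.73, 13.79, 12.65, 6.08 and 4.30 on days 0, 2, 4, 7, 12 and 18, and Il17a, interleukin 17A, at 4.30, 10.25, 10.57, 9.05, 4.41 and 4.27. Both were undetected at day 0, high from day 2 to day 7, and highest at day 4, with less than 2-fold between days 2 and 4. Il17f at day 4 stood at least 482-fold above day 0, and Il17a at least 51.6-fold.

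Il17a and Il17f lie next to each other on mouse chromosome 1, and their promoters are shown because their products define Th17 cells. The 250 bases before each start site are given 5′ to 3′ on the gene's own strand, from RefSeq on GRCm38.p6, at chr1:20730655-20730904 (plus strand) for Il17a and chr1:20784271-20784520 (minus strand) for Il17f. Capitals mark AGGTCA, or TGACCT on the other strand, the half-site bound by RORa and shared by many other nuclear receptors.
Il17a: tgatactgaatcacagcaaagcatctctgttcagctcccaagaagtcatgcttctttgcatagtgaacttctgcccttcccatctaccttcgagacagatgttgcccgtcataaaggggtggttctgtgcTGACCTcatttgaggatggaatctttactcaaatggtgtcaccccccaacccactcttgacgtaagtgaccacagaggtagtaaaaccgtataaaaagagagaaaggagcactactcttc
Il17f: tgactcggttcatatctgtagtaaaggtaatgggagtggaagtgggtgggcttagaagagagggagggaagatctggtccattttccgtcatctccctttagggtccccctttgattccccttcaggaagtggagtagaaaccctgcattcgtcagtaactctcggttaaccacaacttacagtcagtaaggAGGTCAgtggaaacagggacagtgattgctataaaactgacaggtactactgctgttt
Each window held the letters once. They were found in 3 of 7 promoters of the cytokine list and in 14% of all 32851 promoters of the same length, and a match is a description of the sequence, not of binding.

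Other cytokines of the list followed their own courses. Il24, an interleukin 10 family member, was at 4.36, 11.16, 12.52, 10.92, 7.09 and 5.59 over the 6 days, with its highest value at day 4, at least 200-fold above day 0. Il21, whose product acts on T and B cells, was at 4.28, 6.83, 8.24, 7.19, 4.25 and 4.32, also highest at day 4. Il10, encoding the anti-inflammatory interleukin 10, was at 4.47, 7.04, 8.56, 8.40, 6.84 and 5.33, nearly as high at day 7 as at day 4. Il21 was at least 10.3-fold and Il10 at least 12.9-fold higher than at day 0.

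Lta, which encodes lymphotoxin alpha, was detected in all 6 libraries, at 6.15, 9.31, 10.99, 11.40, 8.61 and 8.09, and was 28.6-fold higher at day 4. Csf2, granulocyte-macrophage colony-stimulating factor, was at 5.46 at day 0 and 7.35 at day 4, 3.71-fold higher. The remaining 3 measured members were near the detection limit and were not called: Il22 was at 5.52 at day 4, Ccl20, a chemokine that attracts CCR6-bearing cells, at 5.66 and Il23a, an interleukin 23 subunit, at 5.27, each undetected at day 0. Il9 was not detected in any library, and Il6 only at day 2.

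**Figure D2:**
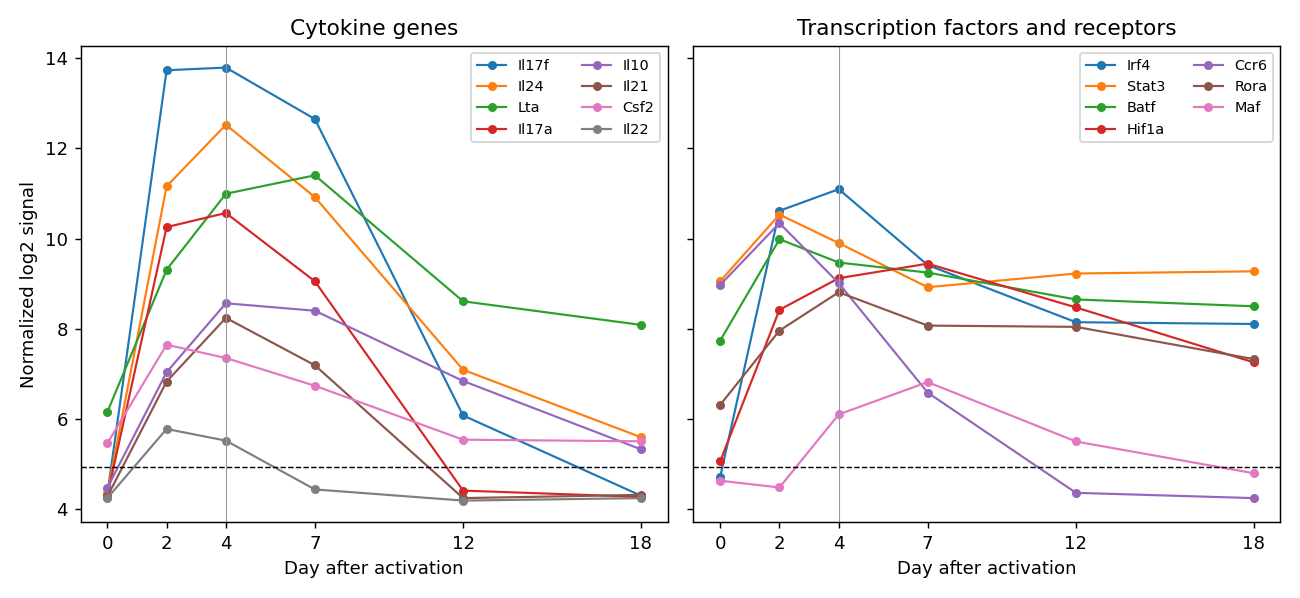
Normalized log2 signal (y axis) against day after activation (x axis) for cytokine genes on the left and for transcription factor and receptor genes on the right, 1 library a point; the dashed line is the day 4 detection limit of 4.93 and the vertical line marks day 4. Il17f, Il24, Il17a and Il21 peak at day 4, while Lta, Hif1a and Maf are higher at day 7.

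Among receptors and transcription factors of Th17 cells, 6 of 11 measured genes were higher and 1 lower, at a median difference of 1.38 (0.47 with T cell identity scaling). Irf4, a factor induced by T cell receptor signals, was at 4.71, 10.61, 11.09, 9.41, 8.14 and 8.11 over the 6 days, at least 74.4-fold higher at day 4 than at day 0. Hif1a, the oxygen-regulated factor, was at 5.06, 8.42, 9.12, 9.44, 8.47 and 7.25, 16.7-fold higher. Irf4 therefore had its highest value at day 4 and Hif1a at day 7.

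Other factors differed less than the leading cytokines. Rora, encoding RORa, was at 6.31, 7.96, 8.81, 8.07, 8.04 and 7.33, 5.65-fold higher at day 4, its highest value. Maf, a factor for interleukin 10 and 21 expression, was detected on days 4, 7 and 12 only, at 6.10 at day 4, at least 2.34-fold above day 0. Batf, the AP-1 family partner of IRF4, was at 7.74 at day 0 and 9.47 at day 4, 3.32-fold higher.

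Several defining genes of the list did not meet the 2-fold rule. Stat3, which transmits interleukin 6 and 23 signals, was at 9.05 and 9.90 on its brightest probe, while its other 2 probes were 2.13-fold and 3.49-fold higher. Ccr6, the chemokine receptor of Th17 cells, was at 8.97 and 9.01, after 10.34 at day 2, and was undetected from day 12. Runx1 was at 5.82 and 5.22 and Il6st, the shared receptor chain gp130, at 6.31 and 6.01. Il23r, Ahr and Basp1 were detected in no library, and Il1r1 only at day 7. The lower member was Il6ra, the interleukin 6 receptor alpha chain, at 7.93 at day 0 and 6.29 at day 4, 3.11-fold lower.

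Genes of the other helper lineages moved in different directions. The Th1 list had 2 of 11 measured members higher and 3 lower, at a median difference of 0.30 (-0.64 with T cell identity scaling). Ifng, interferon gamma, was at 7.95, 10.79, 9.91, 9.36, 7.65 and 9.03, 3.90-fold higher at day 4 than at day 0 but below day 2. Il12rb1, a receptor chain for interleukins 12 and 23, was at least 6.06-fold higher. The Th1 factor Tbx21, which encodes T-bet, was at 6.79 at day 0 and 5.55 at day 4, 2.37-fold lower, and the chemokine receptor Cxcr3 was at 7.14 and 5.80, 2.54-fold lower. Il18r1, an interleukin 18 receptor chain, was 2.96-fold lower on its brightest probe, while its next probe was at 5.43 and 6.10.

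In the Th2 list 3 of 9 measured members were higher and 1 lower, at a median difference of 0.85 (0.29 with undetected sides at their bound, 0.14 with T cell identity scaling). Gata3, the Th2 factor, was at 7.33 at day 0 and 5.48 at day 4, 3.61-fold lower and lower than on any other day sampled. The higher members were Ccr8, a chemokine receptor, at least 5.23-fold, Il3, encoding interleukin 3, at least 3.42-fold, and Ccr4, a chemokine receptor, at least 2.03-fold. Il3 had been at 10.36 at day 2 and was at 6.65 at day 4. Of regulatory T cell genes, 5 of 8 were higher and 1 lower, at a median difference of 1.41 (0.59 with T cell identity scaling). Foxp3, the factor that defines regulatory T cells, was not among them, at 9.51 at day 0 and 8.88 at day 4. Ctla4, an inhibitory receptor, was 53-fold higher and Capg, an actin-capping protein, 7.93-fold higher, whereas Nrp1, neuropilin 1, was at least 5.22-fold lower.

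Most genes of the interleukin 2 axis were higher at day 4, with Il2 itself below its day 2 level. Of 16 measured genes 11 were higher and 1 lower, at a median difference of 1.78 (0.95 with T cell identity scaling). Il2ra, the alpha chain of the interleukin 2 receptor, was at 4.90, 9.50, 10.50, 9.85, 8.42 and 8.57 over the 6 days, and Il2 at 4.97, 10.51, 7.55, 4.65, 4.39 and 4.27. Il2ra was highest at day 4 and Il2 at day 2. Against day 0, Il2ra was 48.4-fold higher at day 4 and Il2 5.95-fold higher. The STAT5-induced feedback inhibitors Cish and Socs2 were 14.9-fold and 11.3-fold higher, and Lif, leukaemia inhibitory factor, was at least 17.4-fold higher. The lower member was the kinase gene Jak1, at least 2.84-fold on its brightest probe, while its next probe was at 5.25 and 5.11.

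Activation and co-stimulatory receptors were higher in 9 of 14 measured members and lower in none, at a median difference of 1.82 (1.07 with T cell identity scaling). Tnfrsf4, which encodes OX40, was at 7.18, 12.32, 11.66, 10.94, 8.79 and 8.17, 22.3-fold higher at day 4. Cd200, a ligand of an inhibitory receptor on myeloid cells, was 14.4-fold higher, Icos, the inducible co-stimulator, 11.6-fold and Tnfrsf9, encoding 4-1BB, 10.7-fold. The early activation marker Cd69 was at 9.33 at day 0 and 10.70 at day 4, 2.58-fold higher, and was detected in the day 0 library too.

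Inhibitory receptors did not move as a group, with 4 of 10 measured members higher and 3 lower and a median difference of 0.39 (-0.49 with T cell identity scaling). Beside Ctla4, the ecto-enzyme Nt5e, or CD73, was 11.4-fold higher, Lag3 5.85-fold and Btla 3.42-fold. Cd160, a receptor also carried by natural killer cells, was at 9.69 at day 0 and 6.03 at day 4, 12.6-fold lower. Tox, a chromatin-associated factor of exhausted T cells, was at least 4.78-fold lower and Vsir, which encodes VISTA, 2.20-fold lower.

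Genes of the naive state split into lower and higher members with quantile normalization. The list of naive and quiescence genes had 4 of 18 measured members higher and 6 lower, at a median difference of -0.61. With T cell identity scaling 0 were higher and 10 lower, at a median of -1.43, beside 4274 lower of all 10890 genes. Reference gene scaling gave 1 higher and 9 lower. Klf2, the quiescence factor, was at 10.45, 5.13, 4.42, 4.88, 6.93 and 6.80 over the 6 days. It was undetected at days 4 and 7 and detected again at day 12. At day 4 Klf2 was at least 45.8-fold lower than at day 0. Tsc22d3, the glucocorticoid-induced leucine zipper, was 5.76-fold lower and Txnip, a brake on glucose uptake, 3.14-fold lower.

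Other naive genes went in both directions. Tcf7, encoding the T cell factor TCF-1, was at 7.95 and 6.70, 2.37-fold lower, while its relative Lef1 was at 5.64 and 6.82, 2.28-fold higher. Satb1, a chromatin organizer, was 2.88-fold higher, with its next probe 1.65-fold higher, and Bach2, a repressor of effector genes, was 2.50-fold higher. Foxo1 was 2.24-fold higher on its brightest probe, but its next probe went from 5.85 to 4.66. Ccr7, the lymph node homing receptor, was at 6.79 and 7.68, Il7r, the interleukin 7 receptor, at 10.11 and 9.16, and neither was called. S1pr1 was not detected in any library.

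Transcription factors of the immediate early response differed in both directions. Of 16 measured immediate early and feedback genes, 5 were higher and 6 lower, at a median difference of -0.44. Fos was at 10.62, 5.91, 4.94, 6.68, 4.77 and 4.26, 51.4-fold lower at day 4, and Fosb was at least 6.70-fold lower. Dusp1 and Dusp6, phosphatases that switch off MAP kinases, were 5.80-fold and 3.21-fold lower. Dusp4, of the same family, was at 4.34, 9.60, 9.51, 7.58, 5.63 and 5.81, at least 24.9-fold higher. Egr2 was 9.63-fold, Atf3 at least 5.67-fold and Egr3 3.92-fold higher. Egr2 and Egr3 are factors that restrain T cell receptor responses, and Egr3 had its highest value at day 4.

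Of 14 measured factors of effector and memory fate, 5 were higher and 3 lower, at a median difference of 0.42 (-0.43 with T cell identity scaling). Zbtb32, a zinc finger repressor, was higher by at least 66.6-fold. Bhlhe40, a factor needed for cytokine production, was 6.22-fold higher and Gfi1, a zinc finger repressor, 3.30-fold. Zeb1 was at 7.56 and 9.02, 2.75-fold higher, while its relative Zeb2, associated with terminal effector cells, was at 7.84 and 6.04, 3.48-fold lower. Ikzf1, encoding Ikaros, was 2.39-fold lower. Prdm1, the gene of Blimp-1, was not detected in any library.

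**Figure D3:**
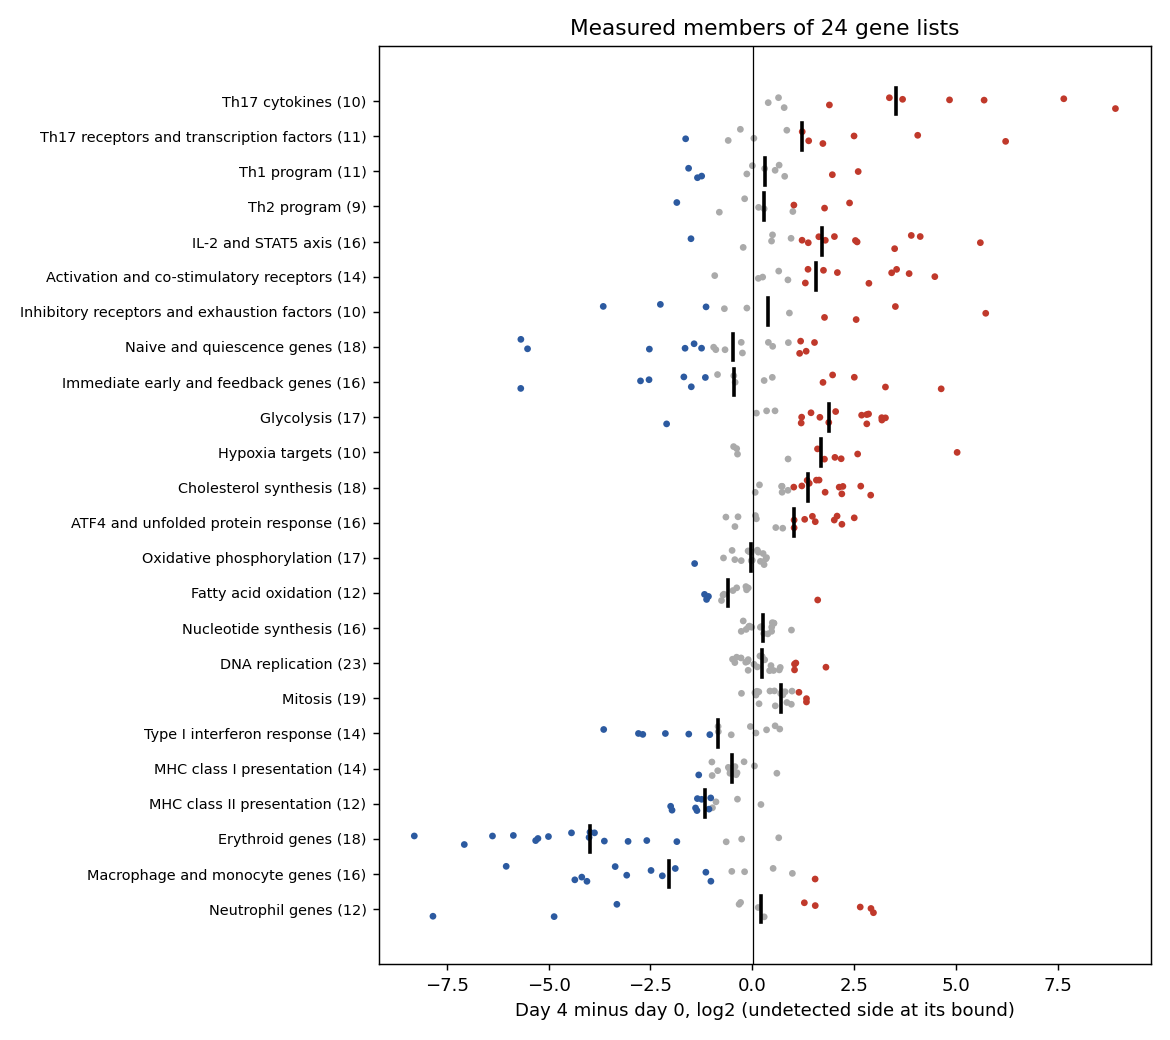
Each point is a measured member of a gene list (rows, with the number measured), by its day 4 minus day 0 difference on the log2 scale with an undetected side at its bound; red points were called higher, blue lower and grey neither, the black bar is the list's median with undetected sides at their bound, such as 3.53 for Th17 cytokines, and the vertical line the median of all genes. Glycolysis and cholesterol synthesis lie to the right, erythroid and class II genes to the left, and nucleotide synthesis and oxidative phosphorylation around the line.

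Most genes of glycolysis were higher, but those measured for its first enzyme steps were not called. Of 17 measured genes, 13 were higher and 1 lower, at a median difference of 2.05 (1.34 with T cell identity scaling). Slc2a1, the glucose transporter GLUT1, was at 8.10, 11.92, 11.27, 10.99, 10.23 and 10.52 over the 6 days, and Pkm, pyruvate kinase, at 10.21, 13.57, 13.48, 13.40, 12.53 and 12.28. Both were high from day 2 on, with their highest value at day 2. At day 4 Slc2a1 was 9.04-fold higher than at day 0, Pkm 9.63-fold, the phosphoglycerate mutase Pgam1 9.07-fold, the enolase Eno1 7.23-fold and the phosphoglycerate kinase Pgk1 7.00-fold. The lower member was Pfkm, the muscle-type phosphofructokinase, at 10.07 and 7.97, 4.30-fold lower. The 3 not called were the transporter gene Slc2a3, the hexokinase gene Hk1 and Gpi1, glucose phosphate isomerase, and Hk2 was not measured. Hypoxia targets had 6 of 10 measured members higher and none lower, at a median difference of 1.77 (0.96 with T cell identity scaling): Egln3, a prolyl hydroxylase that marks HIF for degradation, was 32.6-fold higher, Ddit4, an inhibitor of mTOR complex 1, 6.00-fold, Ankrd37 4.53-fold and Vegfa, vascular endothelial growth factor, 4.08-fold.

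Promoters of 4 of these genes are shown, all with windows that held the letters searched for. Windows of 250 bases before the start site were searched on both strands for ACGTG, the core letters of the hypoxia response element, which are also part of the E-box CACGTG bound by MYC and related factors. The windows were chr4:119108495-119108744 (plus) for Slc2a1, chrX:106186850-106187099 (plus) for Pgk1, chr7:46845554-46845803 (plus) for Ldha, lactate dehydrogenase A, and chr12:54203875-54204124 (minus) for Egln3, with matches in capitals.
Slc2a1: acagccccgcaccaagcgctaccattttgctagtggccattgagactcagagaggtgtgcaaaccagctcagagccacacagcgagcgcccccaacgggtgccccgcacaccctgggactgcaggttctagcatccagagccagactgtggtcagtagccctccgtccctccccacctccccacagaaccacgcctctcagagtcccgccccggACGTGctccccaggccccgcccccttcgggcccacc
Pgk1: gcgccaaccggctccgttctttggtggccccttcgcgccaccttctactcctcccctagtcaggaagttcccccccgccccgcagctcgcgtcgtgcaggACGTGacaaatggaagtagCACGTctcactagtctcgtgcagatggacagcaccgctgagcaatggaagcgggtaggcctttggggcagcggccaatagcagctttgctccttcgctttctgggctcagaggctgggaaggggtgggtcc
Ldha: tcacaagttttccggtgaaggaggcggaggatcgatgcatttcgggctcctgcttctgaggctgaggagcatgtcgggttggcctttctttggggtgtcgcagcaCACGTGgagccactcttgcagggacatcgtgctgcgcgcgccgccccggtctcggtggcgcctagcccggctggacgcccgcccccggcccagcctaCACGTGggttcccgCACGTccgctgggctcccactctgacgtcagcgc
Egln3: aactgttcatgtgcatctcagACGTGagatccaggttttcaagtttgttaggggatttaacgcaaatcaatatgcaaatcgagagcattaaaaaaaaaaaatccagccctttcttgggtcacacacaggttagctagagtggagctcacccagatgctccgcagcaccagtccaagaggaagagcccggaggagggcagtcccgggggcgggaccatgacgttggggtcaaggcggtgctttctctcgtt
The letters were in 10 of 27 promoters of 16 measured glycolytic genes and in 8 of 11 promoters of 9 hypoxia targets, against 16.6% of all promoters. Pfkm, which was lower at day 4, also held them, and the Ldha window shown held the palindrome CACGTG at 2 places. The window of another Ldha start site held none, nor did any of Pfkl, Pfkp, Aldoc, Tpi1, Gapdh and Eno1, all higher at day 4. A shared cause was not tested.

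Cholesterol synthesis genes were higher in 12 of 18 measured members and lower in none, at a median difference of 1.37 (0.51 with T cell identity scaling). Cyp51, the lanosterol demethylase, was at 5.81, 8.80, 8.71, 9.28, 9.34 and 9.01, 7.49-fold higher at day 4 and at a like level on all activated days. Hsd17b7 was 6.33-fold, the lanosterol synthase gene Lss 4.67-fold and the farnesyl diphosphate synthase gene Fdps 4.58-fold higher. The sterol response letters TCACNCCAC were in none of 16 promoters of 13 measured genes of the list, and in 1.05% of all promoters. In fatty acid synthesis 3 of 9 were higher and none lower, at a median difference of 0.54 (-0.23 with T cell identity scaling): the desaturase genes Scd1 and Scd2 were 21.7-fold and 8.73-fold higher and the elongase gene Elovl6 2.77-fold.

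Mitochondrial pathways did not share these differences. Oxidative phosphorylation had 0 of 17 measured genes higher and 1 lower, Ndufa4, 2.67-fold, and the tricarboxylic acid cycle had 0 of 13 higher and 1 lower, Idh2, 2.48-fold, with medians of -0.03 and -0.41. Fatty acid oxidation had 1 of 12 higher and 3 lower, at a median difference of -0.59. The higher member was Acadl, the long-chain acyl-CoA dehydrogenase, 3.04-fold, and the lower were Cpt2, a carnitine palmitoyltransferase, 2.25-fold, Eci1 2.18-fold and Etfb, an electron transfer flavoprotein subunit, 2.11-fold. Cpt1a was not detected in any library. With T cell identity scaling 4 of 17, 7 of 13 and 8 of 12 genes of these pathways, in the order given, were lower, beside 4274 of all 10890 genes.

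Stress genes were more often higher than lower, and amino acid and antioxidant genes split. The list of ATF4 and unfolded protein response genes had 9 of 16 members higher and none lower, at a median difference of 1.11 (0.30 with T cell identity scaling, with 4 higher and 3 lower). Trib3, a pseudokinase induced by ATF4, was 5.66-fold higher, Sdf2l1, an endoplasmic reticulum protein, 4.59-fold, Xbp1, a factor of the unfolded protein response, 4.23-fold and Chac1, which degrades glutathione, at least 4.03-fold. Amino acid transport and serine pathway genes split, with 5 of 13 higher and 3 lower and a median difference of 0.96 (0.17 with T cell identity scaling, with 0 higher and 3 lower). The serine and folate enzymes Shmt1, Phgdh, Psat1 and Mthfd2 were 3.37-fold, 2.59-fold, 2.41-fold and 2.39-fold higher. Asns, asparagine synthetase, was at 10.77 at day 0 and 9.71 at day 4, 2.08-fold lower, with its next probe 1.84-fold lower. Mthfd1 was 2.31-fold lower on its brightest probe, while its next probe was at 7.52 and 7.05. Slc38a2, an amino acid transporter, was 2.48-fold lower on its brightest probe, while its next probe was at 7.07 and 7.23. Antioxidant and NRF2 target genes had 3 of 14 higher and 3 lower, at a median difference of -0.64 (-1.26 with T cell identity scaling, with 0 higher and 8 lower). Txn1, thioredoxin, was 2.32-fold higher, and Hmox1, haem oxygenase, abundant in macrophages of the spleen, was 10.3-fold lower.

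Genes of growth and division differed little between the 2 libraries. Mitosis had 3 of 19 measured members higher and none lower, at a median difference of 0.72 (0.02 with T cell identity scaling), and DNA replication 4 of 23 higher and none lower, at a median difference of 0.23 (-0.63 with T cell identity scaling). Mki67, the proliferation antigen Ki-67, was at 9.71, 9.31, 9.44, 10.06, 10.01 and 7.50, so the day 0 library held as much signal as the day 4 library. Among the called members were Foxm1 and Tpx2, each 2.51-fold higher, Top2a, topoisomerase II alpha, 2.21-fold and Rfc3, a clamp loader subunit, 3.50-fold higher. At day 0, 17 of 24 mitosis genes on the array were detected, beside 18 of 19 erythroid genes, and how much of that signal came from other cells was not tested.

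Protein and nucleotide synthesis also stayed close to day 0. Nucleotide synthesis had 0 of 16 measured genes called either way, cytosolic ribosomal proteins 0 of 15 and the proteasome 0 of 16. Ribosome biogenesis had 1 of 15 higher, Nop56, a core protein of box C/D ribonucleoproteins, 2.14-fold, and its median was 0.06. Myc was at 5.57 at day 0 and 6.67 at day 4, 2.15-fold higher, and Mxd4, an antagonist of MYC, 5.01-fold lower. Of 16 cyclin and E2F genes 3 were higher, among them the cyclin E gene Ccne2, 2.30-fold, and 1 was lower, the cyclin D1 gene Ccnd1, at 8.42 and 5.31, 8.64-fold. The chaperone list had 0 of 16 higher and 1 lower, Hspa1a, at least 2.33-fold, and DNA methylation and Polycomb genes 0 of 13 higher and 1 lower, the methyltransferase gene Dnmt3b, 4.76-fold.

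Cell cycle inhibitors and survival genes were exceptions with quantile normalization. Of 14 measured inhibitors and p53 targets 6 were higher and 2 lower, at a median difference of 0.40 (-0.37 with T cell identity scaling, with 3 higher and 6 lower). Cdkn1a, which encodes the cyclin-dependent kinase inhibitor p21, was at 5.71, 10.77, 10.48, 10.89, 9.82 and 10.62, 27.3-fold higher at day 4. Phlda3 was 4.12-fold, Gadd45g 3.52-fold and the inhibitor gene Cdkn2d 3.24-fold higher, while Gadd45a and Sesn1 were 5.03-fold and 4.87-fold lower. Of 17 apoptosis and survival genes 5 were higher and 2 lower, at a median difference of 0.45 (0.25 with undetected sides at their bound). With T cell identity scaling 0 were higher and 5 lower, at a median of -0.39. The calls that follow are those with quantile normalization. The 2 lower were pro-apoptotic: Bcl2l11, encoding BIM, was at 8.04, 6.84, 5.11, 5.78, 7.83 and 8.20, 7.61-fold lower at day 4 and lowest there, and Bid was 5.22-fold lower. The survival genes Bcl2a1d and Bcl2 were 2.80-fold and 2.09-fold higher and Bcl2l1 at least 3.10-fold, and the caspase gene Casp8 2.18-fold.

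Interferon response genes were lower at day 4, several at their lowest of the 6 libraries. In the type I interferon list 0 of 14 measured genes were higher and 6 lower, at a median difference of -0.84, and the list's median level was 7.61, 6.26, 5.94, 6.72, 8.06 and 8.16 on days 0, 2, 4, 7, 12 and 18. Rsad2, which encodes the antiviral enzyme viperin, was at 8.58, 5.54, 4.25, 4.44, 6.79 and 5.91, at least 12.5-fold lower at day 4 than at day 0. Ifit3 was at 7.73, 4.92, 4.59, 5.08, 8.20 and 9.37, and Usp18, which removes ISG15 from proteins, at 8.88, 7.81, 6.74, 7.96, 9.78 and 9.71. Each was lower at day 4 than at days 0 and 2 and higher again at day 12. For Ifit3 the day 2 value lay at the detection limit, so its step from day 2 to day 4 cannot be read as a fall. At day 4 Ifit3 was at least 6.94-fold, Isg20, an RNA exonuclease, at least 6.45-fold and Usp18 4.39-fold lower.

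Promoters of Ifit3 and Rsad2 are shown as the genes of this group with the letters of the interferon-stimulated response element, TTTC and TTTC set 2 bases apart on either strand, which interferon-activated STAT and IRF factors bind. The windows were chr19:34583279-34583528 (plus) and chr12:26456453-26456702 (minus), with matches in capitals.
Ifit3: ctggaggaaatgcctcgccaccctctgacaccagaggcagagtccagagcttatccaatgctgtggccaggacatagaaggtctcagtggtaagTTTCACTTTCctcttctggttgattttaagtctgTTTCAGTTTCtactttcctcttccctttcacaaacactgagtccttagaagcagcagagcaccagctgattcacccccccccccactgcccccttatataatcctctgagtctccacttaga
Rsad2: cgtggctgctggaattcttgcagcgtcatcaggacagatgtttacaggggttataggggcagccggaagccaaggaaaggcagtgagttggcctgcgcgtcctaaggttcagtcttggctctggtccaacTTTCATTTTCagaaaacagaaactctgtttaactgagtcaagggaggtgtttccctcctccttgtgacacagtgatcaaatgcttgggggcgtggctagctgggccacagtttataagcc
The letters were in 4 of 15 promoters of 11 measured genes of the list, 2 of these genes called lower and 2 not called, and in 2.98% of all promoters.

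Interferon-gamma-induced and MHC class I genes had few calls with quantile normalization. Interferon-gamma-induced GTPases had 0 of 8 measured genes higher and 1 lower, Gbp6, 3.68-fold, at a median difference of -0.36. MHC class I presentation had 0 of 14 higher and 1 lower, the class I gene H2-Q7, 2.49-fold, at a median difference of -0.50. With T cell identity scaling 5 of the 8 GTPase genes and 10 of the 14 class I genes were lower, beside 4274 of all 10890 genes. Paralogs of these families share sequence, so a probe may bind transcripts of several of them.

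Homing and adhesion genes differed in a few members. Of 13 measured chemokine receptor genes 5 were higher and 1 lower, at a median difference of 0.30 (-0.64 with T cell identity scaling). Ltb4r1, the leukotriene B4 receptor BLT1, was at 6.95, 8.13, 11.53, 12.52, 11.54 and 11.48, 23.9-fold higher at day 4 against day 0 and well above day 2. Ptger2, a prostaglandin E2 receptor, was at least 2.87-fold higher and Cxcr4 2.52-fold. Among integrins and adhesion genes 2 of 14 were higher and 1 lower, at a median difference of 0.21 (-0.49 with T cell identity scaling). With 8.88% of all compared genes higher and 10.3% lower, so few calls do not set this list apart. Itgal, the alpha chain of LFA-1, was 3.68-fold and Itgae, or CD103, 2.11-fold higher.

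TGF-beta pathway genes had 4 of 12 higher and none lower, at a median difference of 0.67 (-0.25 with T cell identity scaling). Itgae is in this list too, and the others were the feedback regulators Skil, 4.00-fold, Pmepa1, at least 3.60-fold, and Ski, 2.14-fold. Of 9 measured cytotoxic effector genes 2 were higher and 2 lower, at a median difference of -0.55. Gzmd, a granzyme, was at least 7.31-fold and Srgn, the granule proteoglycan serglycin, 3.82-fold higher, while Nkg7, a granule membrane protein, was at 11.67 and 8.76, 7.51-fold lower, and Prf1, perforin, 2.09-fold lower.

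Gene families taken whole by symbol gave the wider setting. Of 158 measured solute carriers 21 were higher and 28 lower, at a median difference of 0.00. Over all compared genes 8.88% were higher and 10.3% lower. Slc40a1, the iron exporter ferroportin, was at least 176-fold lower and Slc38a5 at least 102-fold. The lower ones included Slc4a1, a member of the erythroid list, and the part of other cells' RNA in this family was not tested. The zinc transporter Slc39a4 was 7.13-fold and the transporter of peptides and histidine Slc15a3 6.86-fold higher. Of 46 interleukin and interleukin receptor genes 16 were higher and 7 lower, at a median difference of 0.87 that was 0.44 with undetected sides at their bound. With T cell identity scaling 13 were higher and 20 lower. Il18, which encodes interleukin 18, was at least 6.49-fold lower and Il15 3.74-fold lower. TNF ligand and receptor genes had 10 of 21 higher and 1 lower, at a median difference of 1.26 (0.42 with T cell identity scaling), the higher ones including Tnfrsf13b 7.77-fold and Tnfsf11, encoding RANKL, at least 4.25-fold, and the lower being Tnfrsf21, a death receptor, 7.07-fold.

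Chemokine genes had 8 of 17 higher and 1 lower, at a median difference of 1.17 (0.44 with T cell identity scaling). Ccl17, a CCR4 ligand, was at 4.83, 10.30, 9.03, 5.56, 4.31 and 4.16, and at least 17.8-fold higher at day 4, and Ccl24 was at least 10-fold, Cxcl16 7.98-fold and Cxcl1, which attracts neutrophils, at least 7.59-fold higher. These 4 were highest at day 2, as were the neutrophil genes S100a8 and S100a9 and the macrophage gene Cd14, and the part of myeloid RNA in them was not tested. Ccl5, a chemokine of memory and cytotoxic T cells, was at 12.07, 9.64, 8.43, 7.07, 8.82 and 11.19, 12.5-fold lower. Kruppel-like factors had 0 of 10 higher and 3 lower, Klf1, which is also in the erythroid list, Klf2 and Klf9. Serpins had 2 of 10 higher, Serpinf1, 6.91-fold, and Serpinb6a, 2.61-fold, and 3 lower, cathepsins 0 of 12 higher and 4 lower, and dual-specificity phosphatases 2 of 15 higher and 3 lower. Proteasome genes by symbol had 0 of 44 called, 1 of 3 measured granzymes was higher, and no gene carried a symbol starting with Hist.

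Day 4 differed from all 5 other libraries, not only from day 0, in few genes. By the same rule 22 genes, 0.202% of those compared, were at least 2-fold higher at day 4 than in each other library, and 7 genes, 0.0643%, at least 2-fold lower. Aqp3, a channel for water and glycerol, was at 5.16, 6.19, 8.37, 6.32, 5.32 and 5.11 and stood at least 4.13-fold above each other day. Saa3, an acute-phase serum amyloid, was at 4.50, 6.56, 8.49, 5.51, 4.50 and 4.37, and Timp1, an inhibitor of metalloproteinases, at 4.34, 10.20, 11.93, 9.83, 4.34 and 4.49. Both were undetected at day 0 and again from day 12. Timp1 was at least 133-fold and Saa3 at least 12.2-fold higher than at day 0.

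The same pattern held for enzymes of lipid and tryptophan metabolism. Enpp2, encoding autotaxin, which makes lysophosphatidic acid, was at 4.55, 5.84, 8.99, 7.67, 5.32 and 4.69. Ido1, which degrades tryptophan, was at 4.23, 6.90, 8.65, 6.97, 6.67 and 6.16, and Bdh2, a hydroxybutyrate dehydrogenase, at 4.68, 5.75, 7.15, 4.57, 4.56 and 5.53. Each was highest at day 4, at least 17.3-fold, 13.6-fold and 4.85-fold above day 0. Frmd6, a membrane-cytoskeleton protein, was 8.71-fold higher than at day 0, Apol9b, an apolipoprotein L family member, at least 3.70-fold and Dlk1, a Notch-related ligand, at least 2.77-fold. Il24 was in this set as well, at least 2.57-fold above each other day.

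The genes lowest at day 4 were few and of another kind. Samd9l, an interferon-induced gene, was at 10.39, 8.41, 6.79, 8.77, 10.72 and 11.13, and Ly6c1, a surface antigen of memory T cells and monocytes, at 10.64, 10.10, 8.54, 11.02, 12.50 and 13.26. Usp18, of the interferon list above, and Serpina3f, a protease inhibitor at 5.54 at day 4, were the other 2 with a gene name. Samd9l was 12.1-fold and Ly6c1 4.29-fold lower than at day 0, and all 4 were higher at day 18 than at day 0.

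**Figure D4:**
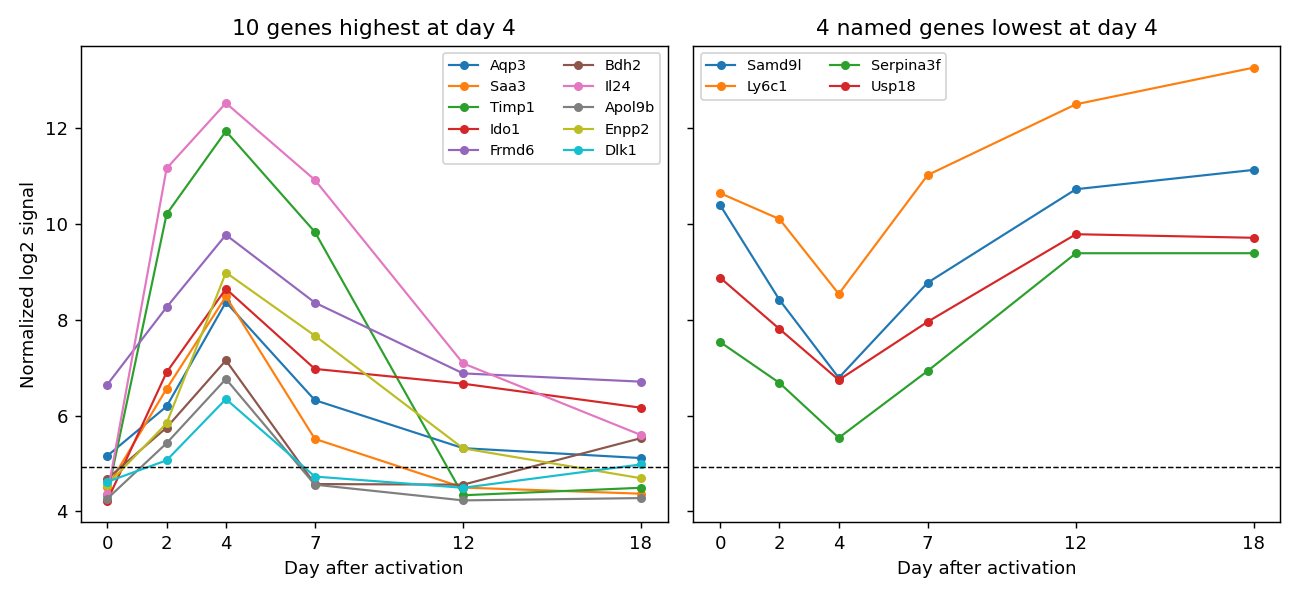
Normalized log2 signal (y axis) by day (x axis), 1 library a point, for the 10 named genes with the largest gap above all other days on the left and the 4 named genes below all other days on the right; the dashed line is the day 4 detection limit. Aqp3, Saa3, Timp1 and Il24 peak at day 4, and Samd9l, Ly6c1, Serpina3f and Usp18 are lowest there.

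Genes of other blood cells were among the largest lower differences, and without the genes of these lists 1069 of the 1125 lower calls remained. The lists hold chosen markers only, so this count does not show how many lower calls came from other cells. Erythroid genes were lower in 15 of 18 measured members and higher in none, at a median difference of -4.57 (-3.996 with undetected sides at their bound). The gene listed as ERAF, alpha-haemoglobin stabilising protein, was at least 341-fold lower. Car1, carbonic anhydrase of red cells, was at least 314-fold lower and the anion exchanger Slc4a1 at least 134-fold. The water channel gene Aqp1, which is in none of the lists, was at least 121-fold lower. The haemoglobin gene Hba-a1 was at 14.26, 13.27, 7.88, 5.62, 5.12 and 4.25, so it was 83.1-fold lower at day 4 but still well above the detection limit. A probe may not distinguish the closely similar copies of haemoglobin genes. Platelet genes were lower in 7 of 8, at a median difference of -2.69, and their summed normalized signal was 2406 at day 0 and 508 at day 4.

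Myeloid genes went both ways. Macrophage and monocyte genes were lower in 11 of 16 measured members and higher in 1, at a median difference of -2.05, and their summed signal was 17324 at day 0 and 9062 at day 4. Vcam1, an adhesion molecule of spleen macrophages and stroma, was 65.8-fold lower and the mannose receptor gene Mrc1 18.2-fold, while Cd14 was 2.91-fold higher. Neutrophil genes split, with 5 of 12 higher and 3 lower and a median difference of 0.22 (-0.73 with T cell identity scaling). The granule genes of precursors, Prtn3 and Ctsg, were 29.1-fold and 10-fold lower, and Mpo at least 229-fold, whereas S100a9, S100a8 and Lcn2, of mature neutrophils, were 7.85-fold, 6.27-fold and 7.53-fold higher. S100a8 was at 10.19, 14.09, 12.84, 10.21, 8.48 and 4.35, highest at day 2.

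Several of the genes highest over day 0 were ones that myeloid cells are known to express. Chil3 and Chil4, chitinase-like proteins of macrophages with near-identical sequences, were 38.9-fold and 39.9-fold higher, Arg1, arginase, at least 35.5-fold, and Cstdc4 and Stfa2, cysteine protease inhibitors of the stefin family, at least 47.9-fold and 30.7-fold. Arg1 was at 4.49, 11.84, 10.03, 4.68, 4.20 and 4.33, detected at days 2 and 4 only. Neutrophil genes had a summed signal of 12212 at day 0 and 11008 at day 4, and the source of these transcripts was not tested.

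The remaining marker lists were smaller. MHC class II genes were lower in 8 of 12 and higher in none, at a median difference of -1.30: Cd74, the invariant chain, was at 12.33, 11.92, 10.32, 8.64, 7.59 and 8.15, 4.01-fold lower at day 4. Dendritic cell genes had 1 of 8 higher, Batf3, a factor that activated T cells also express, 20-fold, and 2 lower. In the list of mast cells and basophils 3 of 11 were lower and 2 higher, at a median difference of 0.58. With T cell identity scaling 3 were lower and 0 higher, at a median of -0.23. The list's summed signal was 3728 at day 0 and 2065 at day 4. The higher members were Fcer1a, the high-affinity IgE receptor chain, 2.97-fold, and Cpa3, 2.27-fold. B lineage genes had 0 of 5 higher and 2 lower, Vpreb1 and Cd79b, and natural killer and CD8 genes 0 of 6 higher and 3 lower, Klrb1c, Klre1 and Klrk1.

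**Figure D5:**
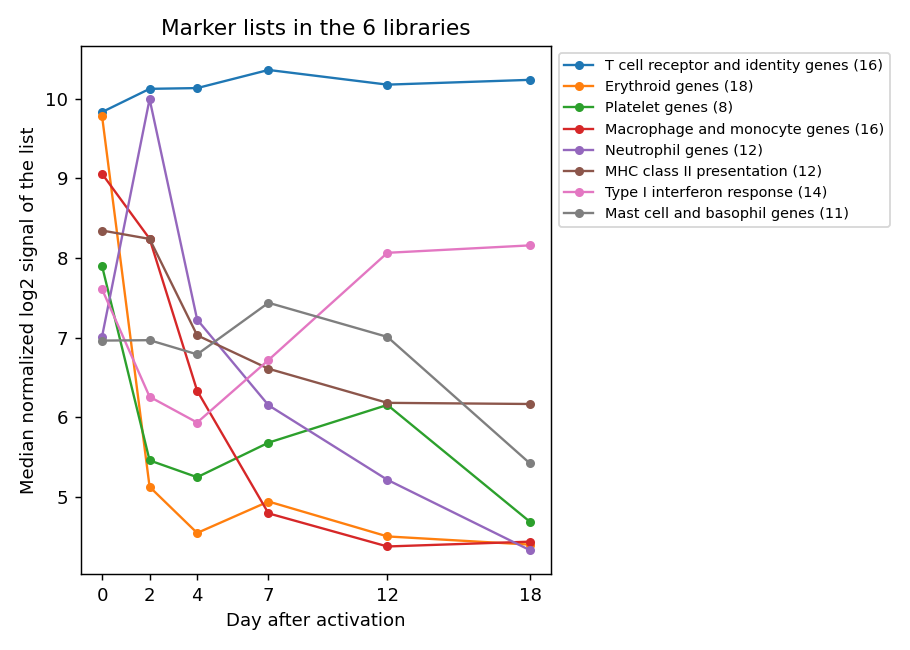
Median normalized log2 signal (y axis) of the measured members of 8 lists (number in brackets) by day after activation (x axis), 1 library a point. The median of T cell genes lies between 9.83 and 10.36, erythroid, platelet, macrophage and class II genes are lower at day 4 than at day 0, neutrophil genes peak at day 2, and type I interferon genes are lowest at day 4.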

How the data were processed

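RNA of 6 samples, 1 a time point, was measured on Illumina bead arrays. Trizol extraction, a kit clean-up with DNase and biotin labelling are recorded per the labels' protocols. The deposited table holds an intensity for each of 45281 probes and array, not normalized per the file headers. Each intensity has a deposited detection p-value. Normalized intensity values deposited by the authors served as an alternative. How the p-values and the normalized values were computed is not stated in what was used. The number of sample columns left unused was 0. Median signals before correction were 92.8 (day 0) and 92.5 (day 4), with 14258 and 13874 probes detected.

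For all 6 arrays together, neqc (limma 3.58.1, R 4.3.3) removed background by normexp from the detection p-values, added an offset of 16, applied quantile normalization and took log2. Further steps used Python 3.11.15 with pandas 2.3.3, numpy 2.4.6 and matplotlib 3.10.9. Probe names were matched to RefSeq symbols of GRCm38.p6: of 30854 names, 16223 matched a symbol, 5676 a synonym of 1 gene, 8918 stayed as deposited and 37 were unusable. A gene is its probe with the highest mean over the arrays. An undetected side took the lowest signal of any detected probe there, unless its own was higher. Over 2650 genes with 2 detected probes, the probes' disagreement had an SD of 0.303 log2 units per probe. With 1 array a side no model was fitted, and calling was tested on simulated data. Members and the 51 lists were chosen with earlier results of these data known. Named genes were the 15 largest differences each way, up to 4 each way in each list and symbol family, the 10 each way farthest from all other days, the Th17 lists and 33 key genes; unnamed gene models were passed over. Some lists share genes. Alternatives are given in the closing section. Some genes of these lists are not reported here by name.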

Additional observations from a re-analysis of the deposited data

How the results depend on the processing

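No paired analysis was possible because each time point had 1 library. Counts at day 4 against day 0 were 967 higher and 1125 lower. Scaling on reference genes gave 472 and 2588 and scaling on T cell identity genes 336 and 4274, by the construction of those scalings, which move all genes down. Without background correction the counts were 512 and 594, and with 3-fold in place of 2-fold 434 and 536. An offset of 50, which shrinks differences of dim genes, gave 638 higher. Over genes detected on all 6 arrays, with fewer genes compared, 673 were lower. The other alternatives stayed within 1.5 times.

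Genes apart from all other days numbered 22 higher and 7 lower. They were 10 and 16 with T cell identity scaling, 9 and 3 without background correction, 11 and 3 with an offset of 50, and 5 and 1 at 3-fold; 5 were higher among genes detected on all 6 arrays. Lists with at least 50% of measured members called numbered 9 higher and 5 lower. With T cell identity scaling they were 2 and 16, and without background correction 5 and 3. Lower lists were 10 with reference gene scaling, 8 over genes detected on all 6 arrays and 0 without the genes of other cell types, which make up those 5 lists.

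Of 243 named genes that were called, 243 kept their call with the deposited normalized values, 230 with median scaling, 205 with reference gene scaling, 191 with T cell identity scaling, 188 without background correction, 212 with an offset of 50, 203 with the mean of a gene's probes and 172 at 3-fold. The log2 difference of Foxo1 turned to -0.0118 with the mean of its probes. Omitting scaling between arrays gave 754 higher and 1525 lower, and omitting the listed genes of other cell types 958 and 1069. Both alternatives were chosen after seeing the data. Signal over background limits genes near the detection limit, whose folds are bounds.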
